A study of Mus musculus with 2 samples.

Results

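The narrowest intron peaks of a BUD31 RNA immunoprecipitation experiment in mouse testicular germ cells are described here. They were chosen from the authors' peak list by 3 conditions: the peak is annotated as intron, its gene is protein-coding, and its width is at most 230 bp. Of 16331 peaks in the list, 1593 met them, which is 9.75% of all peaks and 13.1% (12.5% to 13.7%) of the 12187 intron peaks of protein-coding genes. Every one is exactly 1 calling bin wide, the smallest unit the list holds: 635 are 200 bp wide, 878 are 205 bp wide and 80 are 230 bp wide, according to the chromosome. Just outside the limit lie 1083 intron peaks of 2 bins, the narrowest of which measure 400 bp. The 10594 wider intron peaks had a median width of 1640 bp and reached 59110 bp. Width chose the members, so widths are a description only.

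RNA was recovered with an anti-BUD31 antibody in 1 library, and 1 further library was made from input, from 10% of the total RNA. Both came from germ cells of C57BL/6J mice at postnatal day 14, without any genetic change named in the labels, released from testis by enzymatic digestion. The list is made from this pair of libraries and gives positions on mm10 with a gene and class for each peak, but no count, fold or score. Depth is therefore unknown, no value can be given per library, and nothing could be checked between replicates or tested, since each group is 1 library. Intervals in parentheses are 95% intervals, Wilson for shares and binomial order statistics for medians. They cover counting error over peaks or genes, which are not replicates.

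BUD31 is a protein of the spliceosome, the machine that cuts introns out of pre-mRNA. In RNA immunoprecipitation a protein is captured with an antibody and the RNA that comes with it is sequenced, so RNA that still carries its introns can appear as peaks inside introns. At this age the first wave of spermatogenesis has reached meiotic prophase, when chromosomes pair and recombine, and the piRNA pathway guards the germ line against transposons. Introns of long genes make up most of their length, and a long intron can hold many separate peaks.

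The bases under most of these peaks were not read, since no genome sequence was used here. The exceptions are 3 peaks (0.188%, 0.0641% to 0.552%) that reach into a window of 250 bases before to 50 bases after a gene start, taken from RefSeq on GRCm38.p6, the mm10 assembly. For wider intron peaks the share, measured on their central bin, was 0.16% (17 of 10594), or 0.272% when they were weighted to the same stretches of the same chromosomes. A pair of these windows is shown because they are the stretches in which part of a single-bin peak can be read. Capitals mark the bases inside the peak, and both windows are on the plus strand, 5′ to 3′. The first is the window of Rabgef1, a regulator of the small GTPase Rab5, at chr5:130186930-130187229, which starts inside the span of Rabgef1 itself. The second is the window of Gm52231, at chr16:62755161-62755460, reached by an intron peak of Nsun3, an RNA cytosine methyltransferase of mitochondria.
Rabgef1: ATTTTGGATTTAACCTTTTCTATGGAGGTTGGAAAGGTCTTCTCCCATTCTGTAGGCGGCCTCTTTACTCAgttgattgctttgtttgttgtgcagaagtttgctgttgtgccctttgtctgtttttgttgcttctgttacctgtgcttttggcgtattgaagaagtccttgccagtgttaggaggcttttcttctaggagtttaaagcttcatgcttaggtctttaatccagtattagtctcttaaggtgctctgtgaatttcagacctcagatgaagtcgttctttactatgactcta
Gm52231: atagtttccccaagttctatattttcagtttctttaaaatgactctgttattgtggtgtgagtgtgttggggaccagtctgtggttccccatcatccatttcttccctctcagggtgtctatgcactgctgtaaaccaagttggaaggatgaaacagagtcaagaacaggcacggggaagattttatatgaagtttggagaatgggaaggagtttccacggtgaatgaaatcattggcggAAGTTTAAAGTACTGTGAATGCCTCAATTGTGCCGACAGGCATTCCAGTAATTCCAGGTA

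The Rabgef1 peak, at chr5:130186801-130187000, covers 71 bases of the first window, and the Nsun3 peak, at chr16:62755401-62755600, covers 60 bases of the second. The Rabgef1 window has a GC content of 40.7% and 3 CpG dinucleotides, and the Gm52231 window has 43% and 4, against medians of 52.7% and 7 over 32851 such windows. On either strand the Rabgef1 window holds none of the GC box (GGGCGG), the CCAAT box (CCAAT) and the TATA box (TATAAA), which 35.7%, 37.4% and 13.6% of all windows hold. The Gm52231 window holds 1 CCAAT box and 1 TATA box, both on the minus strand. The last of the 3 peaks, in Serinc3, touches the window of 0610039K10Rik by 1 base.

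Single-bin intron peaks lay almost entirely beyond the midpoint of their chromosome, towards its high-coordinate end. Each chromosome was divided into 10 equal segments, numbered 1 to 10 from its low-coordinate end to the end of its last gene in the reference table. Beyond the midpoint were 1531 of the 1593 single-bin peaks (96.1%, 95% to 97%) and 6823 of the 10594 wider intron peaks (64.4%, 63.5% to 65.3%). Segments 1 to 3 held 2 single-bin peaks (0.126%, 0.0344% to 0.457%) and 1934 wider ones (18.3%, 17.5% to 19%). The share of intron peaks that were single-bin was 0 of 523 in segment 1, 4.91% (45 of 917) in segment 5, 15.2% (179 of 1174) in segment 8 and 25.3% (669 of 2640) in segment 10. The median width of intron peaks was 13 bins in segment 1 and 3 bins in segment 10. How the peaks were called is not given in the sources used here, so a property of the RNA and a property of the calling cannot be told apart in a peak's width. This holds for every count of single-bin peaks, genes and lists below.

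**Figure D1:**
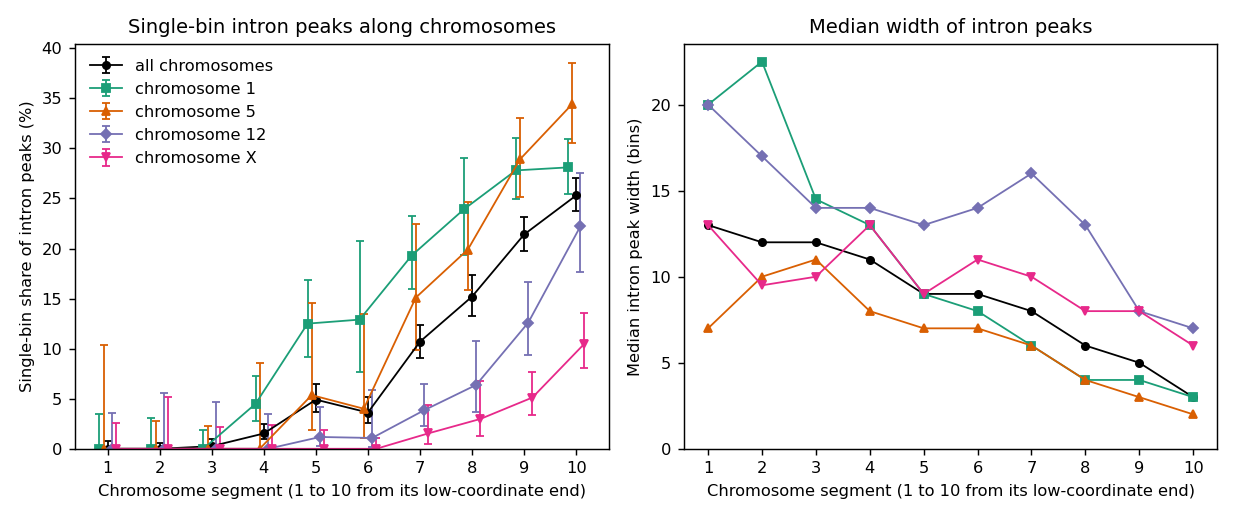
The left panel plots the share of protein-coding intron peaks that are single-bin (in percent) and the right panel the median intron peak width (in bins) against the segment of the chromosome, for all chromosomes and for chromosomes 1, 5, 12 and X. Bars are Wilson 95% intervals for counting error. The share over all chromosomes is 0 in segments 1 and 2 and 25.3% in segment 10, and the median width is 13 bins in segment 1 and 3 bins in segment 10.

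The plot of shares along chromosomes shows the same direction on each of the 4 chromosomes drawn, at different levels. In segment 10 the single-bin share was 28.1% on chromosome 1, 34.4% on chromosome 5, 22.2% on chromosome 12 and 10.5% on the X chromosome. On chromosome 1 none of the 106, 120 and 206 intron peaks of segments 1, 2 and 3 was single-bin. The first 1-bin peak of any class began at 55.238 Mb on chromosome 1, after 546 wider peaks, at 65.816 Mb on chromosome 5, after 555, and at 104.24 Mb on the X chromosome, after 1788. On chromosome 2 it began at 37.677 Mb, after 59. Peaks of other classes had a similar split. Of 144 exon peaks of 1 bin, 93.8% (88.5% to 96.7%) lay beyond the midpoint, against 63.3% of 673 wider exon peaks. In the 3′ UTR the share was 99.0% of 98 peaks of 1 bin and 61.8% of 685 wider ones. For intergenic peaks it was 98.0% of the peaks of 1 bin and 50.7% of the wider ones.

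Single-bin peaks were also spread unevenly over chromosomes. The single-bin share of intron peaks was 40.9% (34.7% to 47.4%) on chromosome 2, with 92 of 225, 21.2% on chromosome 5, with 413 of 1952, and 19.8% on chromosome 1, with 748 of 3778. It was 11.9% on chromosome 10, 11.7% on chromosome 8, 7.48% on chromosome 12, 3.36% (2.7% to 4.16%) on the X chromosome, 3.18% on chromosome 16 and 1.79% on chromosome 18. Chromosomes 15 and 17 held 3 each, and chromosome Y had 0 of 10. No other chromosome had an intron peak of a protein-coding gene, so the peaks do not cover the whole genome. Of all single-bin peaks, 1223 (76.8%) stood beside a gap in the list's running numbers, against 6627 (62.6%) of the wider ones, or 70.1% when wider peaks were weighted to the same chromosome and segment. What was left out at those gaps is not given, and its part in the results below was not tested. Since position goes with width, peak comparisons also use wider intron peaks weighted to the same chromosomes and segments, called position-weighted. Shares of single-bin peaks within gene lists are not weighted in this way. Some comparisons of genes are also given past the first 1-bin peak of each chromosome. The single-bin peaks themselves set this point, so 608 of the 613 matched genes with one lie past it, and leaving out the genes before it raises most shares by construction.

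The 1593 peaks fell in 614 genes, which is 27.2% of the 2260 protein-coding genes with any intron peak, and the other 1646 had only wider ones. In 537 genes (87.5%) the single-bin peaks were joined by at least 1 wider peak, of any class and anywhere in the gene. In 57 genes (9.28%, 7.23% to 11.8%) the single-bin peak was the gene's only peak, and in 12 genes (1.95%) all of 2 or more peaks were single-bin intron peaks. In a further 8 genes, among them Yy1, a zinc finger transcription factor, Adcy10, the soluble adenylate cyclase, and Trmt61a, a tRNA methyltransferase subunit, the remaining peaks were 1 bin wide but of another class. These 3 were chosen after their values were seen. Of the 1646 genes with only wider intron peaks, 440 had a wider intron peak as their only peak. Counted over peaks, the gene's only peak was 57 of the 1593 single-bin and 440 of the 10594 wider ones. The 537 genes had a median of 8 peaks, from 2 to 154. Their widest peak had a median of 3000 bp, from 400 to 48990 bp. A single member was found in 335 genes, 2 in 115, 3 in 65, 5 or more in 68 and 10 or more in 19. Those 19 genes together held 388 single-bin peaks (24.4%).

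**Figure D2:**
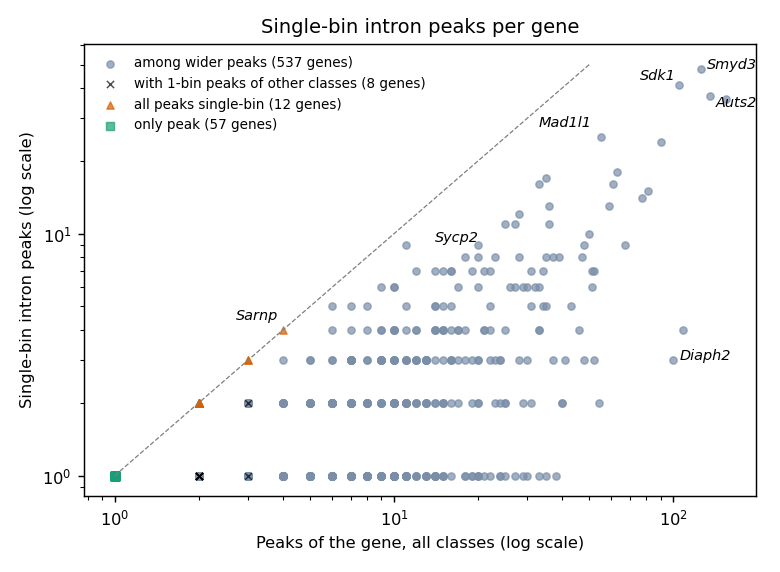
Each point is 1 of the 614 genes, with all its peaks on the horizontal axis and its single-bin intron peaks on the vertical axis, both on log scales and marked by group. On the dashed line every peak is a single-bin intron peak. The 57 genes with 1 peak and the 12 genes whose peaks are all single-bin lie on it, and Smyd3, with 48 of 126, is the highest point.

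The plot of counts per gene holds only genes chosen for having a single-bin intron peak, and those far to the right also carry wider peaks. The 10 genes with the most held 278 single-bin peaks (17.5%), and all lie on chromosomes 1 and 5. Smyd3, a SET and MYND domain methyltransferase, had 48 single-bin peaks among 125 intron peaks (38.4%) over 566.09 kb of chromosome 1. Up to 5 of them followed one another with no wider peak between, and 25 stood 1 empty bin from the next peak of the gene. Rabgap1l, a protein with a Rab GTPase activating domain, had 36 among 148 (24.3%), and its peaks together covered 50.9% of the gene.

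Chromosome 5 contributed a further 3 of the 10. Sdk1, a cell adhesion molecule of synapses, had 41 single-bin peaks among 105 intron peaks (39.0%) over 974.09 kb, with its widest peak at 2200 bp. Auts2, a gene of brain development, had 37 among 135 (27.4%) over 1105.9 kb. Mad1l1, which acts in the spindle assembly checkpoint, had 25 among 55 (45.5%), and its peaks covered 10.9% of the gene.

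Further genes of the 10 are on chromosome 1 and differ in how much of the gene their peaks cover. Rasal2, a Ras GTPase activating protein, had 24 single-bin peaks among 85 intron peaks (28.2%) and its peaks covered 49.3% of the gene. Syt14, a synaptotagmin, had 18 among 54 (33.3%). Sdccag8, a centrosome protein, had 17 among 34 (50%), and Dnm3, a dynamin GTPase, had 16 among 31 (51.6%) with 6.2% of the gene covered.

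**Figure D3:**
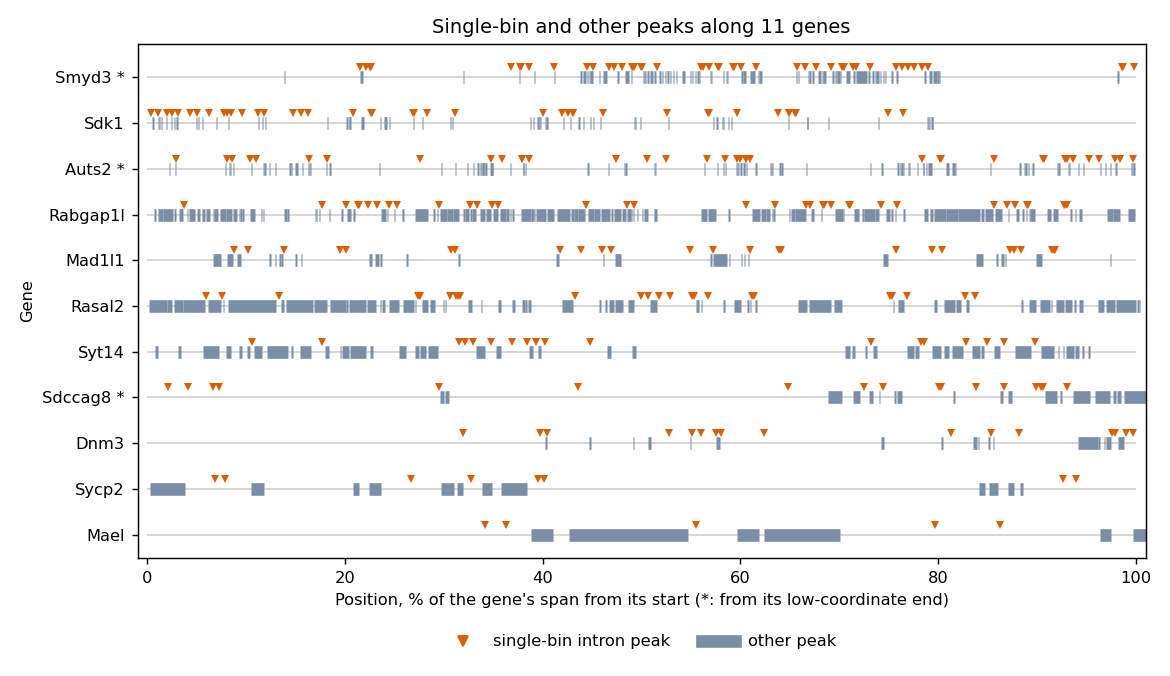
Peaks along 11 genes, 1 row a gene, drawn in percent of the gene's span from its start, or from its low-coordinate end where the strand was not known (asterisk). Triangles are single-bin intron peaks and bars all other peaks, to scale with a minimum drawn width, and peaks past the span are cut off at the edge. In Smyd3 25 of the 48 triangles stand 1 empty bin from the next peak, and in Sycp2 8 triangles lie among wider peaks.

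The map of the 11 genes shows single-bin peaks spread over each gene, with stretches that hold none. Among the 99 genes with 20 or more intron peaks, 22 had no single-bin peak. Of the 15 such genes in segments 1 to 5 of their chromosome, 13 had none, and of the 84 in segments 6 to 10, 75 had at least 1. The highest shares among these genes, named after their values were seen, were in Dnm3, Sdccag8 and Pds5b, a cohesin regulator with 11 of 23 (47.8%). Kifap3, an adaptor of kinesin-2, had 12 of 28 (42.9%). On the X chromosome Nhs had 9 of 66, Zcchc16 had 7 of 52 and Diaph2, a formin that nucleates actin, had 3 of 99. Uchl5, a deubiquitinase of the proteasome and also named after its values were seen, had 7 of 12 and the longest run, 6 single-bin peaks in a row.

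The 57 genes with a single-bin peak as their only peak lay on 8 chromosomes, unevenly for the genes with a single-bin peak there. They were 9 of 19 such genes on chromosome 8, 14 of 48 on chromosome 2 and 12 of 52 on chromosome 10. On chromosome 1 they were 8 of 202. Chromosome 5 held 9, among more such genes than any of chromosomes 2, 8 and 10 had. Chromosome 12 held 3, and chromosomes 16 and 17 held 1 each. The X chromosome, with 43 such genes, is not among the 8. The spans of the 57 genes had a median of 31.5 kb (23.6 to 43.6). The 440 genes whose only peak was a wider intron peak had a median of 23.7 kb (21.0 to 26.8), so the intervals overlap. The shortest of the 57 was Bag5, a co-chaperone of Hsp70, at 3.77 kb, with its peak at chr12:111711676-111711880. Next came Vps37d, a subunit of the ESCRT-I sorting complex, at 5.43 kb with a peak at chr5:135076001-135076200, and D8Ertd738e at 5.48 kb with a peak at chr8:84248401-84248600. That D8Ertd738e peak is also the first 1-bin peak of chromosome 8. Coq10a, a coenzyme Q binding protein of mitochondria, spans 6.96 kb, and Morn2, a MORN repeat protein, spans 9.89 kb.

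At the other end, 1 bin was the only peak over very long genes. Tmcc3, a transmembrane coiled-coil protein, spans 279.27 kb and had its peak at chr10:94318801-94319000. Rimbp2, a presynaptic protein that binds RIM, spans 195.86 kb, with its peak at chr5:128775601-128775800. The whole of this peak also lies inside the long noncoding RNA gene Gm42875, and the list carries no strand. The uncharacterised 4930430A15Rik spans 179.19 kb. Ankrd11, a chromatin regulator with ankyrin repeats, spans 158.96 kb and had its peak at chr8:123029801-123030000. Zhx3, a zinc finger and homeobox repressor, spans 102.54 kb. Others of the 57 were named after their values were seen. Stau1 binds double-stranded RNA, Rae1 exports mRNA, Xpot exports tRNA and Cpsf6 acts in 3′ end processing. Prim1 is a primase subunit and Chaf1b is a subunit of chromatin assembly factor 1. Further ones have other functions, such as Lct, a lactase, Itgb1, an integrin, and Kif14, a kinesin. How many of the 57 act on nucleic acids was not counted, nor the share over all genes, so no theme follows.

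In the 12 genes with 2 or more peaks, all single-bin, the peaks often came in close pairs. The set held 28 peaks, and the 10 genes named by the rule in the methods are described. Sarnp, an RNA-binding protein of mRNA export, had 4 on chromosome 10, at chr10:128827001-128827200, chr10:128828601-128828800, chr10:128839201-128839400 and chr10:128855601-128855800, with 1.4 to 16.2 kb to the nearest. Zfyve21, a FYVE domain protein, had 3 on chromosome 12, with gaps of 2.46 to 6.15 kb. Cyb5a, an electron carrier, had 3 on chromosome 18, of which 2 were 1 empty bin apart. The pairs of Chfr, a checkpoint ubiquitin ligase, Lsm14b, an RNA-binding protein, Mlxipl, a glucose-responsive transcription factor, Rbak, a KRAB zinc finger protein, and Slc9a8, a sodium/hydrogen exchanger, were each separated by a single empty bin of 200 bp. The gap was 600 bp in Ythdf1, a reader of methylated adenosine in RNA, and 1230 bp in Etnk2, an ethanolamine kinase. A split peak and a pair of peaks cannot be told apart from positions alone.

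Close spacing was common over the whole set. Of the 1593 single-bin peaks, 540 (33.9%, 31.6% to 36.3%) were separated from the next peak of their gene by exactly 1 empty bin, against 2217 (20.9%, 20.2% to 21.7%) of the wider intron peaks. The position-weighted value for wider peaks was 34.1%, so at the same places on the chromosomes the shares were close. Within 10 bins of another peak of the gene lay 69.6% (67.2% to 71.8%) of single-bin peaks, against 67.5% (66.6% to 68.4%) of wider ones and 75.3% position-weighted. On chromosome 5 this held for 62.2% of 413 single-bin and 52.6% of 1539 wider peaks, and on chromosome 1 for 80.5% of 748 single-bin and 83.4% of 3030 wider peaks. The median gap was 3 bins for single-bin peaks, 4 bins for wider ones and 3 bins position-weighted. The largest gap, 214.36 kb, was in Phex, an endopeptidase gene of phosphate balance on the X chromosome.

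The nearest neighbour was itself 1 bin wide for 411 of 1536 single-bin peaks (26.8%) with another peak in the gene, for 1107 of 10154 wider ones (10.9%), and for 23.7% of wider ones position-weighted. Its median width was 615 bp beside single-bin peaks, against 1600 bp beside wider ones and 800 bp position-weighted. In the meiotic gene Sycp2 on chromosome 2, 6 of the 8 single-bin peaks had a single-bin peak as nearest neighbour, at gaps of 200 to 600 bp. In Mael, of the piRNA pathway, 4 of 5 did, at 615 and 2255 bp, and the other stood 205 bp from a peak of 4510 bp.

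**Figure D4:**
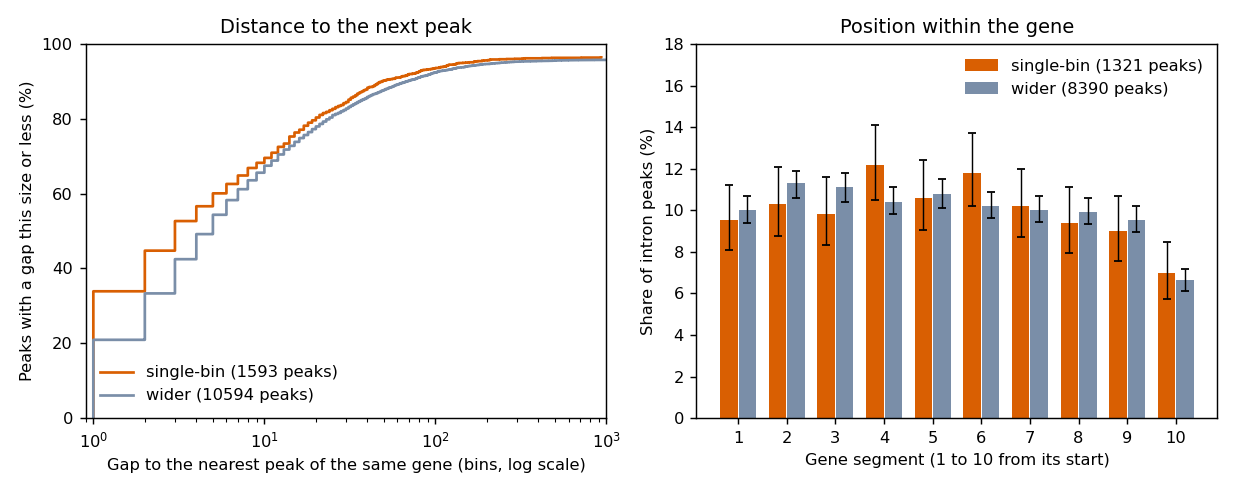
The left panel gives the cumulative share of intron peaks (percent) by the gap to the nearest peak of the same gene (bins, log scale), for 1593 single-bin and 10594 wider peaks. The right panel gives the share of peaks (percent) in each of 10 equal segments of the gene from its start, for the 1321 single-bin and 8390 wider peaks of genes with a known strand, with Wilson 95% intervals. At 1 bin the left curve stands at 33.9% for single-bin and 20.9% for wider peaks, and on the right the intervals of both kinds overlap in every segment.

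Within genes single-bin peaks were spread much as wider ones, as the bars of position show. For the 1321 peaks of genes with a known strand, the median position was 47.5% of the span from the start (44.9% to 50.1%), against 46.7% (45.9% to 47.7%) for 8390 wider peaks and 45.6% position-weighted. The first of 10 gene segments held 9.54% of single-bin and 10.0% of wider peaks, and the last held 6.96% of single-bin and 6.64% of wider peaks. Outside the span of their gene in the reference table lay 2 single-bin peaks (0.151%) and 1 wider peak (0.0119%). Single-bin peaks lay a median 34.8 kb from the gene start, wider ones 37.4 kb, and 31.7 kb position-weighted.

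Genes with a single-bin peak were longer and carried more peaks than genes with only wider intron peaks. Their median span was 57.2 kb (50.9 to 63.0), against 39.3 kb (37.2 to 42.1) for genes with only wider ones. Their median number of peaks was 7, against 3 for genes with only wider ones. Counting only genes past the first 1-bin peak of their chromosome, the medians were 57.1 kb in 608 genes with a single-bin peak and 33.6 kb in 793 genes with only wider ones. A gene with more peaks has more chances to hold a narrow one, and the part of this in the difference was not tested. On the X chromosome the medians were 109.08 kb (54.1 to 150.3) in 43 genes with a single-bin peak and 37.4 kb (31.2 to 43.7) in 322 with only wider ones.

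A second gene lay under 68 of the single-bin peaks (4.27%, 3.38% to 5.38%), against 3.94% (3.58% to 4.32%) of wider peaks judged by their central bin and 4.03% position-weighted. It was a long noncoding RNA gene for 43 peaks, another protein-coding gene for 16, a pseudogene for 7 and a small nuclear RNA gene for 1. The small nuclear RNA gene is Gm25235, at chr1:170832765-170832871, in an intron of Atf6, a transcription factor of the unfolded protein response, and the peak at chr1:170832651-170832855 covers 91 bp of it. Whether the recovered RNA came from the intron or from the small RNA cannot be told apart here, since the list carries no strand. The pseudogene cases, named after their values were seen, were peaks of Srgap2, Nek2, Gphn, Ift81 (2 peaks), Pvrig and Sdk1, and sequence shared with a parent gene could not be checked. The peak named for Pvrig lies outside the span of Pvrig in the reference table, inside that of the pseudogene Pvrig-ps. No microRNA hairpin overlapped a member.

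Gene functions were described with 11 lists, each counted among its protein-coding members on chromosomes with peaks. Over all such genes 613 of 14867 (4.12%) had a single-bin intron peak and 15.2% an intron peak of any width, and among the 6821 past the first 1-bin peak of their chromosome 608 (8.91%) had a single-bin one. Listed genes outside this set were not counted. Thus 40 of 68 listed meiotic prophase genes and 96 of 135 cell adhesion and synapse genes entered. The peak list has no expression levels, and in bulk cells fewer cells of a type and less RNA per cell cannot be told apart. Of the meiotic prophase genes 9 of 40 (22.5%, 12.3% to 37.5%) had one, and all 9 are among the 25 past that point (36%). An intron peak of any width stood in 17 of the 40 (42.5%), and 16.2% of the list's 148 intron peaks were single-bin, against 13.1% over all genes. The 13.1%, here and for the lists below, is not weighted to the chromosomes and segments of a list's peaks. Spo11, which makes the DNA breaks of meiotic recombination, had it as its only peak, at chr2:172982801-172983000. Sycp2, part of the axis of meiotic chromosomes, had 8 among 18 intron peaks (44.4%), at chr2:178349001-178349200 and 7 further places. In its segment, segment 10 of chromosome 2, 50.8% of the 59 intron peaks of protein-coding genes were single-bin. Hfm1, a helicase of crossover formation, had 4 among 10. Scml2, a Polycomb-related protein on the X chromosome, had 3 among 35.

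Of the piRNA pathway and germ cell RNA-binding genes, 5 of 30 (16.7%, 7.34% to 33.6%) had a single-bin peak, or 5 of the 14 past the first one (35.7%). Any intron peak stood in 12 of the 30 (40%), and 16.3% of the list's 86 intron peaks were single-bin. Mael, which is needed for transposon silencing, had 5 among 10 intron peaks, from chr1:166206416-166206620 to chr1:166225891-166226095. Fkbp6, a co-chaperone of piRNA production, had 3 among 9, Tdrd9, a tudor domain helicase, had 3 among 11, and Piwil1, a PIWI protein, had 2 among 3. Among spermatid and sperm axoneme genes 9 of 59 (15.3%, 8.24% to 26.5%) had one, or 9 of 20 (45%) past the first. Any intron peak stood in 20 of the 59 (33.9%), and 9.92% of the list's 474 intron peaks were single-bin, below the 13.1% over all genes. Catsper2, a subunit of the sperm calcium channel, had it as its only peak, at chr2:121407001-121407200. Dnah14, an axonemal dynein heavy chain, had 15 among 72, Spata17 had 8 among 21, and 1700007G11Rik, listed in the reference table as Cfap299, had 6 among 33.

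Kinases, phosphatases and GTPase regulators had a single-bin peak in 16 of 85 genes (18.8%, 11.9% to 28.4%), or 16 of 43 (37.2%) past the first. Any intron peak stood in 33 of the 85 (38.8%), and 15.3% of the list's 778 intron peaks were single-bin. Besides Rabgap1l and Rasal2 they include Cdc42bpa, a kinase regulated by Cdc42, with 14 among 71. For splicing factors the count was 5 of 70 (7.14%, 3.09% to 15.7%), or 15.2% past the first, with any intron peak in 21.4% and 12.9% of the list's 62 intron peaks single-bin. Rbm39 had 4 among 9, while Rbm25 had 1 among 6 and Sf3b3, a subunit of the U2 complex SF3b, had 1 among 2. Of the transcription factors 8 of 83 (9.64%) had one, with any intron peak in 25.3% and 15.5% of the list's 194 intron peaks single-bin. In Klf7, at chr1:64040771-64040975, and Nfat5, at chr8:107345601-107345800, it was the only peak. Atf6 had 13 among 33 and Cux1, a homeobox factor, had 11 among 35.

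In the other lists the share of genes with a single-bin peak was at most 9.8%. Splicing factors (7.14%) and transcription factors (9.64%) lay in that range too. Chromatin modifiers had a single-bin peak in 5 of 51 genes (9.8%, 4.26% to 21.0%), with any intron peak in 45.1%. Of the list's 283 intron peaks 56 (19.8%) were single-bin, against 13.1% over all genes, and 48 of these 56 lie in Smyd3. Hdac4, a histone deacetylase, had 3, and Brdt, a testis bromodomain protein, and Kdm5b, a histone demethylase, had 2 each. Cell adhesion and synapse genes had one in 6 of 96 (6.25%, 2.9% to 13%), or 12.8% past the first, with any intron peak in 18.8%. Of that list's 375 intron peaks 84 (22.4%) were single-bin, the highest share of all the lists. Of these 84, Sdk1 held 41 and Auts2 held 37. Members with one include Sdk1, Ctnna3 (1), an alpha-catenin of cell junctions, and genes not known mainly as adhesion molecules, namely Auts2 and Macrod2 (3), which removes ADP-ribose from proteins. Ion channels and transporters had one in 2 of 52 (3.85%), or 5.88% past the first, with any intron peak in 9.62%. Of that list's 38 intron peaks 10.5% were single-bin. The 2 genes are Atp2b4, a calcium pump, and Kcnc2, a potassium channel, with 2 each. None of 22 spermatogonial genes had one, which allows a share of up to 14.9%, and only 6 of these genes lie past the first 1-bin peak of their chromosome. That range includes the 4.12% over all genes. Any intron peak stood in 4 of the 22 (18.2%), against 15.2% over all genes, with 8 intron peaks in total. Of 33 marker genes of somatic testis cells 1 had a single-bin peak (3.03%, 0.537% to 15.3%), or 6.67% past the first, with any intron peak in 5 of 33 (15.2%). Of that list's 38 intron peaks 2.63% were single-bin. The gene is Wt1, a Sertoli cell transcription factor, with its only peak at chr2:105151401-105151600.

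Sorting the 614 genes by words in their deposited descriptions, a classification made after the data were seen, gave similar shares to the 1646 genes with only wider intron peaks for most classes. Phosphatases and their subunits made up 20 of the 614 (3.26%, 2.12% to 4.98%), against 20 of the 1646 with only wider peaks (1.22%, 0.788% to 1.87%). Past the first 1-bin peak of each chromosome the shares were 3.29% of 608 genes with a single-bin peak and 1.26% of 793 with only wider ones (0.686% to 2.31%). Examples are Ppp2r5c, with 8 single-bin peaks among 18 intron peaks, and Ppp2r5a, with 6 among 19, both regulatory subunits of protein phosphatase 2A, and Phlpp1 with 4 among 16. Cilium, centrosome and motor proteins were 4.4% (3.04% to 6.32%) of genes with a single-bin peak, against 2.43% (1.79% to 3.29%) of genes with only wider ones, or 4.28% against 2.4% past the first 1-bin peak. Examples are Kifap3 and Ift81, a subunit of intraflagellar transport. The words of its description also placed Mad1l1, of the spindle assembly checkpoint, in this class, so the class name is approximate. RNA-binding and processing genes were 3.91% (2.64% to 5.75%) of genes with a single-bin peak, against 2.43% (1.79% to 3.29%) of those with only wider ones. Past the first 1-bin peak they were 3.78% of genes with a single-bin peak and 2.77% (1.84% to 4.16%) of those with only wider ones. Raly, an hnRNP protein, had 7 among 15. Kinases were 5.86% of genes with a single-bin peak and 5.41% of genes with only wider ones, or 5.92% and 4.92% past the first. Sperm, testis or meiosis genes were 1.63% of genes with a single-bin peak and 1.52% of genes with only wider ones, or 1.48% and 1.51% past the first. Zinc finger genes were 4.56% of genes with a single-bin peak against 3.52% of those with only wider ones, and ubiquitin system genes 4.56% against 4.19%. Small GTPases and regulators were 2.93% against 1.94%. Going the other way were solute carriers or ion channels, at 2.77% against 3.89%, and uncharacterised genes, at 2.61% against 3.71%. None of these shares was adjusted for the number of peaks per gene, a median of 7 against 3. In none of the classes were 399 of the 614 genes (65.0%) and 1153 of the 1646 genes with only wider intron peaks (70.0%).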

How the data were processed

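The authors deposited 1 list of annotated peaks. Per the file headers, each row holds a running number, chromosome, start, end (positions in bp, of another kind than a count or score), class, transcript, gene, description and gene type. Reads were aligned to mm10, and TopHat2 2.0.13 is named, per the submitters' processing notes. Which caller and threshold were used, and how the input entered, was not given in the sources used here. Widths are whole multiples of a bin fixed per chromosome, which limits every position, and a run of signal broken by 1 bin gives 2 peaks.

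Width was end minus start plus 1. Gene numbers were matched to a GRCm38.p6 gene table: 613 of 614 genes matched and 538 had a strand from the promoter table. Peaks of every class with the same gene number count as peaks of that gene. Position-weighted values use wider intron peaks weighted to the chromosome segment (of 10 equal ones) of the single-bin ones, and were added after the data were seen. The members, the gene lists and the tests were chosen with earlier results of these data known. The rule for named genes takes the 10 genes with most single-bin peaks, the 5 shortest and 5 longest genes whose only peak it is, up to 10 genes with all peaks single-bin, genes with a peak over a small RNA, and up to 4 per list. Some genes that the rule would name are not reported here. Others are said to be named after their values were seen. Counting was tested on simulated peaks. Alternatives tried were width limits of 200 and 460 bp, other distances, counting units, chromosomes and overlaps. Python 3.11.15, numpy 2.4.6, pandas 2.3.3, scipy 1.17.1 and matplotlib 3.10.9 were used.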

Additional observations from a re-analysis of the deposited data

How the results depend on the processing

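Of 53 alternatives 34 left the value within its interval, or within 1.5 times for a count, and 19 moved it. The number of peaks was 635 at a width limit of 200 bp, which drops every chromosome with a wider bin (1, 12 and X) and so changes chromosomes and not peak width, and 2676 at 460 bp. The share of genes with a single-bin peak as their only peak was 12.7% when only intron peaks were counted and 15.4% at 200 bp, again without those chromosomes. The share within reach of another peak was 60.1% at 5 bins and 80.4% at 20 bins. Gene span was a median 94.9 kb with each peak counted once, and the position in the gene was 33.4% for the most upstream peak of each gene. Shares past the first 1-bin peak leave out genes before a point that these peaks set, so they rise by construction. For lists, the piRNA share was 35.7% both on well covered chromosomes (at least 10% of coding genes with a peak) and past the first 1-bin peak. Kinases, phosphatases and GTPase regulators were at 31.4% on well covered chromosomes and 37.2% past the first peak. Also past the first peak, axoneme genes were at 45%, chromatin modifiers at 23.8% and transcription factors at 18.6%. Somatic genes were at 0% on well covered chromosomes. The share beyond the chromosome midpoint was 93.9% at 460 bp, 92.2% with 1 peak per gene and 97.9% without chromosomes 1 and 5. The causes were not tested, beyond what each setting counts. No paired analysis was possible because each group has 1 library. Without counts or scores, a weak peak and a short one cannot be told apart, and depth sets no limit that could be computed.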
